A study of Mus musculus with 16 samples.

Results

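Bard1 was knocked down in mouse embryonic fibroblasts (MEFs) at the start of reprogramming, and the transcriptome on day 3 was compared with that of cells given a non-targeting (nt) siRNA. The comparison uses 4 of the 16 libraries, 2 siBard1 and 2 nt, and 14028 of the 18990 genes in the table, those whose log2 CPM (reads of a gene scaled to the size of the library) averaged 0 or more over the 16 libraries. All 16 libraries came from wild-type BL6 primary MEFs at passage 2 that carried lentiviruses for rtTA and for a doxycycline-inducible tet-OSKM (STEMCCA) cassette with Oct4, Sox2, Klf4 and c-Myc. Cells received 40 nM pooled siRNA and were then induced in medium with 2 µg/mL doxycycline, 3 µM chiron, 0.25 µM of an Alk5 (TGF-β receptor) inhibitor, 50 µg/mL ascorbic acid and LIF. The other groups held 2 libraries each: siBrca1 and siWdr5 on day 3, and nt, siBard1, siBrca1 and siWdr5 on day 6. Cells were not sorted and total RNA was depleted of ribosomal RNA, so cells that did not take up the siRNA or the cassette are in every library, and fewer cells of a kind cannot be told apart from less RNA per cell.

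BARD1 forms a heterodimer with BRCA1 through their RING domains. The pair is a ubiquitin ligase that acts in homologous recombination, in the protection of stalled replication forks and at histone H2A. Fibroblasts that are driven toward pluripotency by OSKM shut down a mesenchymal program early, with its contractile actin filaments, matrix and TGF-β signalling, and take on epithelial features before pluripotency genes come on. Serum response factor (SRF) with its MRTF coactivators drives contractile genes, and YAP and TAZ with TEAD factors drive genes that answer to cell spreading and tension.

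The library pooled several siRNAs for each gene, and the list of it used here gives 2 of those against Bard1, shown because they define the perturbation. The antisense (guide) strands are given 5′ to 3′, with the seed (bases 2 to 8) in capitals:

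siRNA 60227 antisense: aGAAGAUGugcucacaucctc

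siRNA 159810 antisense: uUGUCGGUuuaucuugaggtc

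Both match coding sequence of Bard1, on the minus strand of chr1:71027498-71103146 (GRCm38, GENCODE annotation). The former targets chr1:71089475-71089493 in exon 2 and the latter chr1:71088167-71088185 in exon 3. No other tested gene had a match of 15 bases or more to either target. A 3′ UTR match to either seed was present in 19.28% of the called lower genes with an annotated 3′ UTR (16 of 83), in 17.37% of the called higher genes (37 of 213) and in 17.89% of all 12570 tested genes with one. The share of lower genes with a seed match was thus close to that of all genes.

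Bard1 stood at 30.5 and 29.1 CPM in the nt libraries and at 18.01 and 20.8 CPM in the siBard1 libraries. Both siBard1 libraries lay below both nt libraries, and the log2 difference was −0.62 (SE 0.19, adjusted p = 0.0422, limma, Benjamini-Hochberg). This call passed in 7 of 15 alternative settings, with adjusted p between 0.0032 and 0.21, and was lost with any 1 of the 4 libraries left out. Bard1 was lower still in the siBrca1 libraries (14.4 and 9.07 CPM) and in the siWdr5 libraries (13.9 and 15.3 CPM). The difference of siBard1 minus siBrca1 passed (0.76, adjusted p = 0.0136, limma), and that of siBard1 minus siWdr5 did not (0.41, adjusted p = 0.188). On day 6 the nt libraries held 11.3 and 14.01 CPM and the siBard1 libraries 12.6 and 14.5 CPM, so the groups overlapped by then.

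The siBard1 libraries held 14260205 and 17215650 reads and the nt libraries 15393826 and 17393793, at which 3 reads correspond to 0.156 to 0.210 CPM. The SD of the log2 difference over genes was 0.330 between the siBard1 libraries, 0.264 between the nt libraries and 0.454 to 0.487 between a siBard1 and an nt library. Between siBard1 and siBrca1 libraries it was 0.373 for replicate 1 of both groups and 0.462 to 0.628 for the other pairs. As each group had 2 libraries and no label states that they came from separate embryos, p-values measure only the spread between these libraries. The 6 ribosomal RNA entries, which the depletion step should remove, took 0.350 and 0.162% of reads in nt against 0.00173 and 0.0157% in siBard1. The single entry Gm26917, a long noncoding RNA listed here with ribosomal RNA, took 21.7 and 19.8% in nt and 15.6 and 12.1% in siBard1. Their part in the gene changes was not tested.

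After Bard1 knockdown 314 genes (2.24% of those tested) differed with adjusted p under 0.05 and an absolute log2 difference above 1, and 222 (1.58%) of them were higher and 92 (0.656%) lower. Without the size threshold 1216 genes (8.67%) were higher and 823 (5.87%) lower, and these 2 shares are the background for the gene lists. The median log2 difference of all tested genes was −0.02. Of the 314 genes, 95 were called again with each of the 4 libraries left out in turn. The split was 150 higher and 93 lower without siBard1 replicate 1, 207 and 28 without siBard1 replicate 2, 136 and 21 without nt replicate 1, and 214 and 33 without nt replicate 2. Keeping genes of any level moved the split from 222 higher and 92 lower to 188 and 37. Libraries of the groups did not overlap for 30.2% of genes (higher) and 33.7% (lower), and 314 of the 314 called genes were among them.

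**Figure D1:**
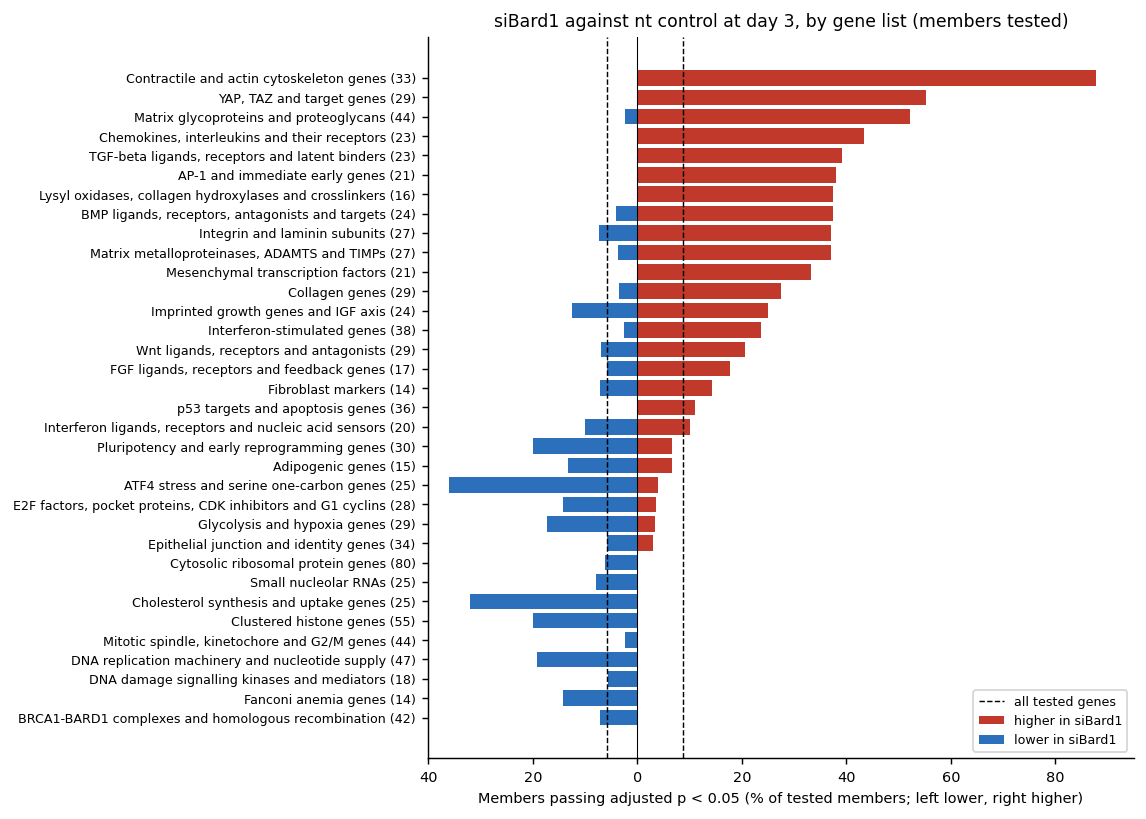
Share of tested members (%, x axis) of each gene list with adjusted p under 0.05 that were higher (right) or lower (left) in siBard1 than in nt libraries on day 3, for lists with at least 14 tested members. The dashed lines mark the 8.67% higher and 5.87% lower of all 14028 genes, and contractile genes reach 87.9% on the right.

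Contractile and actin cytoskeleton genes held the highest share of higher members among the lists with at least 14 tested. Of 33 tested members 29 (87.9%) rose and none fell, with a median log2 difference of 1.03, and 17 of them were among the called genes. In 32 of the 33 both siBard1 libraries lay above both nt libraries, against 30.2% of all genes. With siBard1 replicate 1, siBard1 replicate 2, nt replicate 1 or nt replicate 2 left out, 21, 27, 19 and 22 members rose, while 3.35, 4.73, 2.22 and 3.61% of all genes did. In the same order 3.55, 0.649, 0.413 and 0.606% of all genes fell, the background for the lower counts below.

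Acta1, the skeletal muscle isoform of α-actin (chr8:123891769-123894751), stood at 9.83 and 12.2 CPM in nt and at 54.2 and 38.1 CPM in siBard1 (log2 difference 2.05, SE 0.16, adjusted p = 1.73e-05). Myh11, the smooth muscle myosin heavy chain (chr16:14194535-14291372), stood at 96.3 and 113 CPM in nt and 409 and 339 CPM in siBard1 (1.84, SE 0.14, adjusted p = 1.51e-05). In both genes the lower siBard1 library was over the higher nt library by a wide margin, and siBard1 replicate 1 was the higher of the pair. Mylk, the myosin light chain kinase that switches on smooth muscle contraction, went from 25.4 and 28.7 CPM to 83.2 and 90.8 CPM (1.69, SE 0.12, adjusted p = 1.51e-05). Actg2, enteric smooth muscle actin, went from 119.7 and 149 CPM to 485 and 394 CPM (1.71, SE 0.15), and Cnn1, an actin-binding calponin, from 80.1 and 101 CPM to 273 and 215 CPM (1.43, SE 0.14). These 5 genes passed in each of the 15 alternative settings.

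Several regulators and classical markers of the list were added after their values were seen. Acta2, smooth muscle α-actin and the usual marker of myofibroblasts, stood at 671 and 832 CPM in nt against 2269.5 and 1767 CPM in siBard1 (1.42, SE 0.17, adjusted p = 0.00029). Myocd, the coactivator of SRF in smooth muscle, rose from 1.13 and 1.22 CPM to 3.57 and 2.37 CPM (1.31, SE 0.31, adjusted p = 0.0144). Srf itself stood at 65.6 and 72.8 CPM in nt and 82.4 and 61.7 CPM in siBard1, so the groups overlapped (0.04, adjusted p = 0.849). Of the MRTF genes, Mkl1 passed the test at a log2 difference of 0.37 (SE 0.12, adjusted p = 0.0469) and Mkl2 did not (0.10, adjusted p = 0.566). Actn4 and Tln1, with log2 differences of 0.36 and 0.27, were the other two of the 4 members that did not pass.

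**Figure D2:**
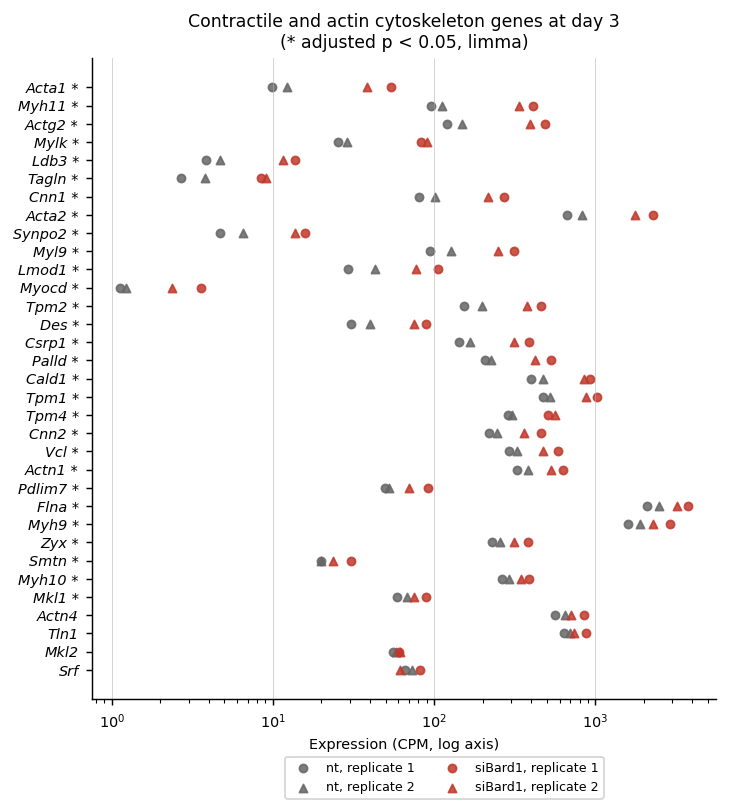
Expression (CPM, log x axis) of the 33 tested contractile and actin cytoskeleton genes in the 2 nt (grey) and 2 siBard1 (red) libraries of day 3, circles for replicate 1 and triangles for replicate 2, with an asterisk for adjusted p under 0.05. Symbols of the groups are apart for nearly all genes, from Acta1 at the top (log2 difference 2.05), and intermingle for Srf at the bottom (0.04).

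SRF binds the CArG box, a 10-base element with an A/T-rich core. Promoter windows of 300 bases, from 250 before to 50 after the start site (RefSeq, GRCm38.p6), were searched on both strands for it. Of 27 contractile genes with a window, 6 (22.22%) held a CArG box, against 1.599% of the 10195 tested genes with a window and 1.629% of all 32851 windows. The list is one of known SRF targets, and a match is a description of sequence, not a bound site. Srf, which did not pass the test, holds a CArG box within chr17:46556205-46556234 beside the one shown. Windows of 30 bases are given 5′ to 3′ on the gene's strand with the CArG box in capitals, for 5 genes that rose and for Srf:

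Acta1, chr8:123894829-123894858, minus strand: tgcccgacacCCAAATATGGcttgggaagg

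Myl9, chr2:156775293-156775322, plus strand: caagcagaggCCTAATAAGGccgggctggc

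Cnn2, chr10:79988534-79988563, plus strand: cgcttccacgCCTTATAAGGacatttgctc

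Ldb3, chr14:34588697-34588726, minus strand: gggttacagtCCATTTATGGgcgcagcaag

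Vcl, chr14:20929161-20929190, plus strand: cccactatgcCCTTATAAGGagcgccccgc

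Srf, chr17:46556225-46556254, minus strand: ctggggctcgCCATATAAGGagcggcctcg

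Of the list of YAP, TAZ, their TEAD partners and target genes 16 of 29 tested members (55.2%) rose, with none lower and a median log2 difference of 0.42. With the 4 libraries left out in the order above, 9, 13, 8 and 9 rose. Ankrd1, a stretch-responsive ankyrin repeat protein (chr19:36111961-36120099), stood at 15.9 and 24.1 CPM in nt and 82.8 and 77.6 CPM in siBard1 (log2 difference 2.03, SE 0.17, adjusted p = 2.62e-05). Ctgf, a matricellular growth factor (chr10:24595442-24598683), stood at 29.8 and 42.2 CPM against 133 and 117.5 CPM (1.82, SE 0.22, adjusted p = 0.000269). Its exons share 23.2% of their length with the antisense gene Gm15270, and without a stated strand setting their reads cannot be told apart. F3, tissue factor, rose by 1.38 (SE 0.19) and Cyr61, a relative of Ctgf, by 0.86 (SE 0.12). In all 4 genes the groups did not overlap, which the way Ankrd1 and Ctgf were picked had required of them. The factors themselves are among the 29 and were looked up after the list was seen. Yap1 (0.10, adjusted p = 0.525), Wwtr1, which encodes TAZ (0.19, adjusted p = 0.24), Tead2 (−0.03) and Tead4 (−0.24, adjusted p = 0.199) did not pass. Tead1 (0.41, adjusted p = 0.0324) and Tead3 (0.46, adjusted p = 0.0362) passed and are 2 of the 16.

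The TEAD motif GGAATG, searched on both strands, was present in the promoter windows of 10 of 21 YAP and TAZ list genes with a window (47.62%), against 14.52% of tested genes and 14.66% of all windows. The list holds known targets of these factors, and a match is not a bound site. Yap1, Wwtr1 and Ptpn14, which did not pass the test, are among the 10 genes with the motif. Both sites of Ankrd1, the member with the largest difference, are given with the motif in capitals:

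Ankrd1 site 1, chr19:36119950-36119979, minus strand: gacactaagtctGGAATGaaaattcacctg

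Ankrd1 site 2, chr19:36120037-36120066, minus strand: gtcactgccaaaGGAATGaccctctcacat

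Matrix genes moved the same way to a smaller degree. Of 44 tested glycoprotein and proteoglycan genes 23 (52.3%) rose and 1 fell, with a median log2 difference of 0.43. Without siBard1 replicate 1, siBard1 replicate 2, nt replicate 1 and nt replicate 2 the count was 12, 18, 6 and 15. Mfap5, a component of elastic microfibrils, stood at 2.91 and 4.07 CPM in nt and at 10.7 and 10.7 CPM in siBard1 (1.64, SE 0.19, adjusted p = 0.000239). Dcn, which encodes the collagen-binding proteoglycan decorin, was the member that fell, from 31.7 and 30.4 CPM to 23.5 and 21.5 CPM (−0.46, SE 0.14, adjusted p = 0.046). Fn1, which encodes fibronectin and was named after its value was seen, passed narrowly at 0.55 (SE 0.17, adjusted p = 0.0491).

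Among 29 collagen genes 8 rose and 1 fell (2 to 8 rose with a library left out, the lowest without nt replicate 1, and 4 without siBard1 replicate 1). The short-chain collagen gene Col8a1 stood at 66.4 and 81.6 CPM against 185 and 175 CPM (1.29, SE 0.13, adjusted p = 0.000104). Col1a1, the main fibrillar collagen of fibroblasts, was added after its value was seen and did not pass (0.49, SE 0.18, adjusted p = 0.0852). The member that fell was Col15a1 (−0.85, adjusted p = 0.0179). Of 16 genes for collagen crosslinking and hydroxylation 6 rose and none fell, with Lox, lysyl oxidase, at 104 and 120.3 CPM in nt and 244 and 206 CPM in siBard1 (1.00, SE 0.12). Of 27 protease and inhibitor genes 10 rose and 1 fell, and of 27 integrin and laminin genes 10 rose and 2 fell. With the libraries left out in turn the crosslinking genes that rose were 2, 4, 2 and 3, the protease genes 5, 7, 3 and 6, and the integrin and laminin genes 5, 8, 4 and 5. Timp3, an inhibitor of matrix metalloproteinases whose gene lies inside Syn3 on the other strand (21.3% of its exon length is shared with it), rose by 1.02 (SE 0.10). Itga1, a collagen-binding integrin subunit, rose by 1.26 (SE 0.14).

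Of 23 genes for TGF-β ligands, receptors and latent binders 9 (39.1%) rose and none fell, in cells kept under an Alk5 inhibitor. With the 4 libraries left out in turn, 5, 9, 4 and 6 rose. Tgfb3, which encodes a TGF-β ligand, stood at 61.3 and 70.5 CPM in nt and 237 and 196 CPM in siBard1 (1.71, SE 0.14, adjusted p = 1.73e-05), with 12.4% of its exon length shared with the antisense gene Gm48008. Inhba, the activin A subunit, stood at 66.2 and 69.5 CPM against 167 and 158 CPM (1.26, SE 0.12), and Fst, the activin antagonist follistatin, rose by 0.72 (SE 0.12). The ligand, the activin subunit and the antagonist each had both siBard1 libraries above both nt libraries. Tgfb2 rose by 0.87 and Ltbp2, a matrix protein of the latent TGF-β binder family, by 1.09.

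BMP pathway genes rose in 9 of 24 (1 fell), among them the BMP antagonist Grem1, at 107 and 124 CPM in nt against 200.0 and 190.3 CPM in siBard1 (0.76, SE 0.12). Bmpr1b, a type I BMP receptor, rose by 1.16 (SE 0.19). Of 29 Wnt pathway genes 6 rose and 2 fell, in part within the same pathway, as the ligands Wnt4 (0.85, SE 0.15) and Wnt5a (0.66, SE 0.10) and the antagonist Dkk2 (0.83, SE 0.18) rose while the nuclear effector Lef1 fell (−0.80, SE 0.22, adjusted p = 0.0264). FGF genes rose in 3 of 17 and fell in 1, Fgf16 (−1.05, SE 0.30, adjusted p = 0.0313). Without nt replicate 1 the counts that rose were 4 of 24, 1 of 29 and 2 of 17, without siBard1 replicate 1 they were 3, 2 and 1, and without siBard1 replicate 2 they were 8, 5 and 1.

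Transcription factors of mesenchymal cells rose in 7 of 21 tested and fell in none (3, 7, 3 and 3 with the libraries left out in turn). Msx2, a homeobox factor downstream of BMP, stood at 3.43 and 3.73 CPM in nt and 8.90 and 7.77 CPM in siBard1 (1.22, SE 0.19, adjusted p = 0.00129). Zeb1, a repressor of epithelial genes, differed by 0.68 (SE 0.12) and Prrx1, a limb mesenchyme factor, by 0.63 (SE 0.11). Twist1, seen after the list was counted, did not pass (−0.05, adjusted p = 0.856). On the epithelial side 1 of 34 tested genes rose and 2 fell, shares of 2.94 and 5.88% that are near or under the background. Dsp, the desmosomal plaque protein desmoplakin, fell from 220 and 250.1 CPM to 156 and 113 CPM (−0.82, SE 0.16, adjusted p = 0.00532). Krt19, a keratin of simple epithelia, rose by 0.42 (SE 0.13, adjusted p = 0.0427).

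The reprogramming factors were lower in the siBard1 libraries, in 4 of 4 genes. In this table a read counts for a factor whether it came from the cassette or from the cell's own gene. All 4 factors are on the same cassette, so their differences may not be 4 separate measures. Pou5f1, which encodes Oct4, stood at 219 and 246 CPM in nt and at 137 and 92.5 CPM in siBard1 (log2 difference −1.04, SE 0.17, adjusted p = 0.00184), with 14.1% of its exon length shared with the antisense gene Gm19553. Sox2 stood at 324 and 350.4 CPM against 199 and 122 CPM (−1.11, SE 0.21, adjusted p = 0.0046), Klf4 at 677 and 743 CPM against 428 and 288 CPM (−1.02, SE 0.17), and Myc at 628 and 647 CPM against 400.2 and 277 CPM (−0.94, SE 0.16). The siBard1 libraries lay below both nt libraries in each gene, and siBard1 replicate 2 was lower than replicate 1. The median difference over the 4 genes was −0.74 without siBard1 replicate 2, where 3 of the 4 passed, and −1.31 without replicate 1. The siBrca1 libraries held 130 and 96.6 CPM of Pou5f1 and the siWdr5 libraries 162 and 142 CPM. The lower factor level was therefore seen in all 3 knockdowns of day 3, and none of the 4 factors differed between siBard1 and siBrca1 or siWdr5 with adjusted p under 0.05. On day 6 Pou5f1 was at 205 and 241 CPM in nt and 173 and 231 CPM in siBard1, with overlap between the groups. The part of the lower factor level in the other gene changes was not tested.

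Of 30 tested pluripotency and early reprogramming genes 6 (20%) fell and 2 rose, and with the libraries left out in turn 3, 2, 1 and 3 fell. Slc7a3, an arginine transporter of pluripotent cells, stood at 101 and 89.6 CPM in nt and at 52.5 and 48.6 CPM in siBard1 (−0.91, SE 0.11, adjusted p = 0.000283). Nr0b1, which encodes DAX1, a nuclear receptor that partners with Oct4, fell from 5.94 and 3.79 CPM to 0.978 and 1.70 CPM (−1.88, SE 0.41, adjusted p = 0.00962). Sall4, a zinc finger factor that is an early marker of reprogramming, fell by 1.21 on the log2 scale (SE 0.26), and Etv5 by 0.49 (SE 0.11). Against this direction Tbx3, a T-box factor of naive pluripotency, rose from 19.7 and 17.99 CPM to 29.9 and 25.3 CPM (0.55, SE 0.13, adjusted p = 0.0126). Nanog, added after its value was seen, was near the detection limit, at 0.994 and 0.593 CPM in nt and 0.276 and 0.656 CPM in siBard1 (adjusted p = 0.352).

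**Figure D3:**
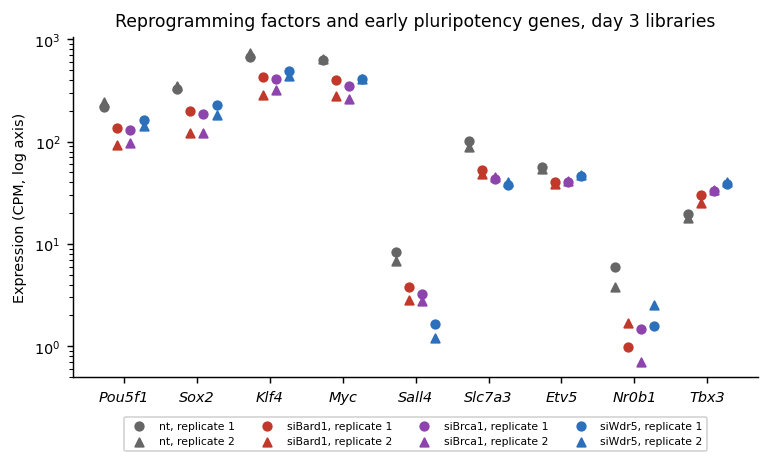
Expression (CPM, log y axis) of the 4 reprogramming factors and of 5 early pluripotency genes in the 8 libraries of day 3, coloured by siRNA, circles for replicate 1 and triangles for replicate 2. The nt libraries are above all knockdown libraries for the 4 factors, Sall4, Slc7a3, Etv5 and Nr0b1 and below them for Tbx3.

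DNA replication genes leaned lower in the siBard1 libraries. In 47 of 47 the log2 difference was negative, with a median of −0.45, in 43 both siBard1 libraries lay below both nt libraries (33.7% of all genes), and 9 (19.1%) passed the test. With 1 library left out 1 or 2 passed, and when replicate numbers were blocked 19. Cdt1, a licensing factor for replication origins, stood at 70.8 and 71.4 CPM in nt and at 44.2 and 36.6 CPM in siBard1 (−0.82, SE 0.13, adjusted p = 0.00172). Pold2, a subunit of DNA polymerase δ, stood at 70.5 and 73.1 CPM against 45.3 and 35.9 CPM (−0.83, SE 0.16, adjusted p = 0.00441). Mcm2, a subunit of the replicative helicase, fell by 0.59 (SE 0.16) and Chaf1b, a subunit of the histone chaperone at the fork, by 0.70 (SE 0.19).

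Of 55 tested clustered histone genes 11 (20%) fell, with a median log2 difference of −0.79, and the count depended on the fit: 0 passed when all 16 libraries were fitted together, 25 with limma-voom and 45 with the replicate block. With a library left out 0 to 2 fell. Hist1h1c, a linker histone gene, stood at 514 and 486 CPM in nt and 356 and 261 CPM in siBard1 (−0.72, SE 0.15, adjusted p = 0.00825). Histone genes share near-identical coding sequence, so reads could be split among copies. Of 44 mitotic genes 41 had a negative log2 difference (median −0.30). In 38 both siBard1 libraries lay below both nt libraries, against 33.7% of all genes. The test was passed by 1 (2.27%), Mybl2, a transcription factor of the G2/M program (−0.91, SE 0.19, adjusted p = 0.00693). With the replicate block 8 of the 44 fell (7.71% of all genes) and with only the libraries of the compared groups 23 (11.9%). The G1 regulators Ccne1 (−0.45) and E2f1 (−0.46) fell and Cdkn2b, which encodes the CDK inhibitor p15, rose (0.47, SE 0.11), and they are 3 of the 5 that passed among 28. With the libraries left out in turn 2, 1, 1 and 0 of these 28 fell.

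Of 42 tested genes of BRCA1-BARD1 complexes and homologous recombination 3 (7.14%) fell and none rose: Bard1 itself, Rad51d, a recombination factor, at 34.2 and 32.0 CPM in nt and 24.5 and 23.0 CPM in siBard1 (−0.48, SE 0.13, adjusted p = 0.0246), and Bap1, a BRCA1-associated deubiquitinase (−0.34, SE 0.10, adjusted p = 0.0407). This share was near the background of 5.87% in the main fit, and the count depended on the fit. With only the libraries of the compared groups 13 of the 42 fell (11.9% of all genes). With limma-voom 12 fell (8.14% of all genes) and without a trend 0 (1.33%). The log2 difference was negative in 39 of the 42, with a median of −0.29, and in 26 both siBard1 libraries lay below both nt libraries. With libraries left out 2, 1, 0 and 0 fell. Of 14 Fanconi anemia genes 2 (14.3%) fell, Fance and Faap100, with 7 in the fit of only the compared groups and 1 without a trend. All 14 had a negative difference (median −0.45), and in 13 the siBard1 libraries lay below both nt libraries, against 33.7% of all genes. With the libraries left out in turn 1, 0, 0 and 0 fell. Of 18 DNA damage kinases and mediators 1 (5.56%) fell, Mdc1, with 15 negative, a median of −0.25 and 13 below both nt libraries. In the fit of only the compared groups 7 of the 18 fell, and without a trend 0. Brca1 stood at 82.4 and 78.0 CPM in nt and at 57.8 and 66.1 CPM in siBard1, below both nt libraries, and did not pass (−0.38, SE 0.22, adjusted p = 0.258). The main fit also takes in the spread of the siBrca1 libraries, in which Brca1 is the siRNA target. Of 15 alternative settings Brca1 passed in 1, the fit of only the compared groups (adjusted p = 0.0168, limma). Wdr5, which encodes a subunit of histone methyltransferase complexes, fell from 132 and 130.5 CPM to 96.6 and 91.9 CPM (−0.48, SE 0.10, adjusted p = 0.009), and did not pass without a trend or with siBard1 replicate 2 or either nt library left out.

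Targets of p53 rose in 4 of 36 tested (11.1%, against 8.67% of all genes) and fell in none. Fas, a death receptor, stood at 15.6 and 14.1 CPM in nt and at 27.3 and 27.5 CPM in siBard1 (0.89, SE 0.14, adjusted p = 0.00153). Pmaip1, which encodes the BH3-only protein NOXA, rose by 0.64 (SE 0.12), Mdm2, the ubiquitin ligase of p53, by 0.55 (SE 0.11) and Btg2, an antiproliferative gene, by 0.37 (SE 0.10). With the libraries left out in turn 4, 3, 1 and 2 rose. Cdkn1a, the CDK inhibitor that p53 induces, did not pass (0.29, adjusted p = 0.0817).

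Interferon-stimulated genes rose in 9 of 38 tested (23.7%) and fell in 1, Bst2, with 3, 5, 4 and 3 rising when the libraries were left out in turn. Ifit1, an antiviral RNA-binding protein (chr19:34640871-34650009), stood at 1.19 and 0.421 CPM in nt and at 3.57 and 2.89 CPM in siBard1 (2.18, SE 0.43, adjusted p = 0.0057), on 16 and 5 reads against 49 and 53. Gbp2, an interferon-induced GTPase, stood at 6.798 and 5.73 CPM against 13.7 and 12.2 CPM (1.06, SE 0.18, adjusted p = 0.00206), and Ifit2 rose by 0.96 (SE 0.17). B2m, the light chain of MHC class I, rose by 0.56 (SE 0.13). The nt and siBard1 libraries did not overlap for any of these 4, which the way Ifit1 was picked had required of it. In siWdr5 libraries Ifit1 stood at 0.510 and 0.601 CPM, below siBard1 by 2.54 on the log2 scale (adjusted p = 0.0034), and in siBrca1 libraries at 3.09 and 2.32 CPM (adjusted p = 0.7 for the difference). Among 20 ligands, receptors and sensors of the pathway 2 rose and 2 fell. The falling members were Rnaseh2a and Rnaseh2c, subunits of the RNase H2 enzyme that removes ribonucleotides from DNA, and Rnaseh2c shares 24.8% of its exon length with Kat5.

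The interferon-stimulated response element was searched on both strands as GAAA, any 2 bases, GAAA, and stood in 14 of 29 listed genes with a window (48.28%), against 3.57% of tested genes and 3.443% of all windows. The list holds known targets of that element. Matches in the members with the largest differences are given with the motif, here on the opposite strand, in capitals:

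Ifit1 site 1, chr19:34640775-34640804, plus strand: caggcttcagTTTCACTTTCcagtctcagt

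Ifit1 site 2, chr19:34640794-34640823, plus strand: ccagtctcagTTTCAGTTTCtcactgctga

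Gbp2, chr3:142620594-142620623, plus strand: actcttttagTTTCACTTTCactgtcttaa

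Genes of chemokines, interleukins and their receptors rose in 10 of 23 (43.5%) and fell in none, with 4, 4, 3 and 5 rising when the libraries were left out in turn. Il6, a cytokine of the fibroblast secretory response, stood at 1.26 and 1.16 CPM in nt and at 3.36 and 3.83 CPM in siBard1 (1.57, SE 0.23, adjusted p = 0.000985). Csf1, the macrophage growth factor, stood at 214 and 261 CPM against 519 and 459 CPM (1.05, SE 0.15). Both siBard1 libraries lay above both nt libraries in 19 of the 23, against 30.2% of all genes. Immediate early genes rose in 8 of 21, with Dusp1, a MAP kinase phosphatase, at 33.6 and 35.4 CPM in nt and 66.8 and 54.5 CPM in siBard1 (0.81, SE 0.12), and 3, 6, 2 and 3 rose when the libraries were left out in turn.

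Metabolic lists leaned lower. Of 25 genes of the ATF4 response and of serine and one-carbon metabolism 9 (36%) fell and 1 rose, and with the libraries left out in turn 9, 3, 2 and 2 fell. Shmt2, the mitochondrial serine hydroxymethyltransferase, stood at 196 and 201 CPM in nt and at 135 and 106 CPM in siBard1 (−0.73, SE 0.12, adjusted p = 0.00148). Phgdh, which commits glucose carbon to serine, fell by 0.66 (SE 0.14). Cholesterol genes fell in 8 of 25 (32%) and rose in none, with Srebf2, the transcription factor of the pathway, at 187 and 179 CPM in nt and 145 and 118 CPM in siBard1 (−0.49, SE 0.11, adjusted p = 0.0119). With the libraries left out in turn 7, 2, 2 and 3 fell. Glycolysis and hypoxia genes fell in 5 of 29 and rose in 1, and 4, 2, 2 and 3 fell with the libraries left out. Pdk1, which keeps pyruvate out of the citric acid cycle, stood at 49.0 and 49.6 CPM in nt and at 26.9 and 26.1 CPM in siBard1 (−0.90, SE 0.15, adjusted p = 0.00232).

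Imprinted growth genes and the IGF axis were split, with 6 of 24 higher and 3 lower, and 2, 4, 3 and 2 higher with the libraries left out in turn. Igfbp2, an IGF-binding protein, stood at 82.5 and 82.1 CPM in nt and at 221 and 162 CPM in siBard1 (1.20, SE 0.13, adjusted p = 0.000206), while Nnat, an imprinted proteolipid gene, fell from 50.6 and 48.3 CPM to 26.1 and 23.2 CPM (−1.005, SE 0.13, adjusted p = 0.000534). In both genes the groups were apart, in opposite directions. Ribosomal protein genes fell in 5 of 80 (6.25%), a share near the background of 5.87%, and in 20 without siBard1 replicate 1 but 0 without any 1 of the other libraries. With quantile normalization 32 fell, against 7.85% of all genes.

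Among the named genes, noncoding RNAs gave the largest fitted differences. The ribosomal RNA list holds the 6 entries above, Gm26917 and the gene Lars2, all of them tested. Of these 8 members 7 passed as lower in siBard1, with a median log2 difference of −4.39 (−5.24 to −3.21 with 1 library left out). The number that passed depended on the fit: 8 with limma-voom, 3 with all 16 libraries fitted together, 0 without a level filter and 0 without a trend. CT010467.1, an rRNA entry at chr17:39846353-39848827, stood at 3248 and 1385 CPM in nt and at 5.39 and 98.5 CPM in siBard1 (−6.52, SE 1.56, adjusted p = 0.0147), and 73.9% of its exon length overlaps the opposite-strand gene Gm42418. The siBard1 libraries were far apart from each other for this entry and both lay below nt. The rRNA share was also low in the knockdown libraries siBrca1 (0.0489 and 0.0101%) and siWdr5 (0.00133 and 0.0635%) of day 3, and on day 6 it was 0.134 and 0.239% in nt and 0.0293 and 0.0726% in siBard1. What the rRNA depletion left in each library moves with these values, and its part was not tested.

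Of 7 tested small cytoplasmic or nuclear RNAs 2 rose and none fell, though 4 of the 7 had a negative log2 difference (median −0.31). With limma-voom or with the replicate block 2 of the 7 fell. Rny3, a Y RNA that binds the Ro60 protein (chr6:47781624-47781725), stood at 0.400 and 0.307 CPM in nt and at 1.75 and 4.29 CPM in siBard1 (2.97, SE 0.47, adjusted p = 0.00146), on 4 and 3 reads against 23 and 80. Rny1, its neighbour at chr6:47788069-47788180, stood at 1.46 and 1.16 CPM against 4.27 and 8.09 CPM (2.18, SE 0.39, adjusted p = 0.00324) and did not pass without siBard1 replicate 2. On day 6 the nt libraries held 3.66 and 0.535 CPM of Rny3 and the siBard1 libraries 1.87 and 0.278 CPM. The groups of day 6 thus overlapped. Small nucleolar RNAs fell in 2 of 25 and rose in none, and of 7 mitochondrial messenger RNAs 1 rose, mt-Nd5 (0.53, SE 0.17, adjusted p = 0.047).

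**Figure D4:**
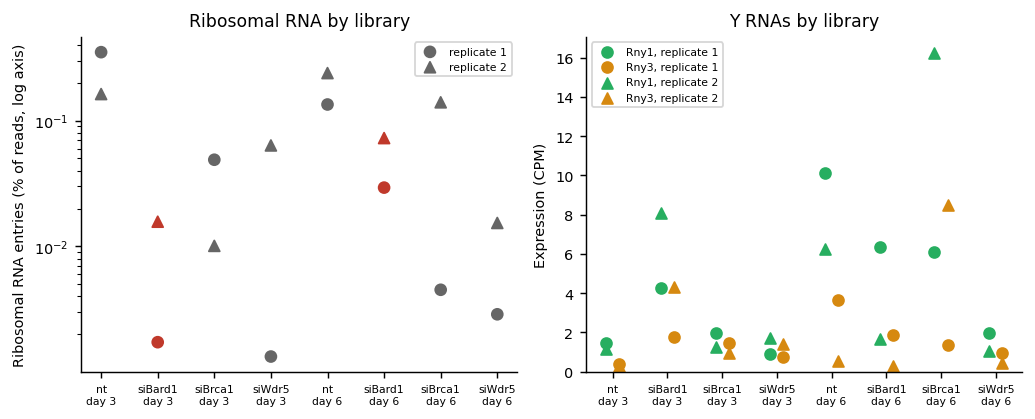
Left, share of reads in ribosomal RNA entries (%, log y axis) in the 16 libraries, siBard1 in red; right, expression of the Y RNAs Rny1 and Rny3 (CPM, linear y axis from 0), with circles for replicate 1 and triangles for replicate 2. On day 3 the siBard1 libraries (0.00173 and 0.0157% rRNA) lie below nt (0.350 and 0.162%), while Rny1 and Rny3 lie above nt.

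Outside the lists, the largest rises included Ppp2r2c, a regulatory subunit of protein phosphatase 2A, which had 1 and 8 reads in nt and 23 and 25 in siBard1 (2.19, SE 0.52, adjusted p = 0.014). Cyp1a1, the monooxygenase induced by the aryl hydrocarbon receptor, stood at 0.994 and 1.96 CPM in nt and at 6.796 and 4.55 CPM in siBard1 (1.99, SE 0.32). Alox5, the enzyme that starts leukotriene synthesis, stood at 1.65 and 1.39 CPM against 5.96 and 6.06 CPM (1.99, SE 0.24, adjusted p = 0.000306). These 3 genes are expressed at a few CPM, and they were picked from called genes whose groups do not overlap. Ppp2r2c did not pass without a level filter or without a trend, and its log2 difference was 0.90 to 2.97 over 14 alternative settings. Trpv2, a cation channel, rose by 1.95 (SE 0.30) and Parm1, an androgen-regulated mucin-like protein, by 1.89, from 9.90 and 10.2 CPM to 40.4 and 34.6 CPM (SE 0.14, adjusted p = 1.51e-05). Nptx2, a secreted pentraxin, rose by 1.83, Car8, a carbonic anhydrase-related protein, by 1.82, Lipg, endothelial lipase, by 1.77, and Havcr2, the immune receptor TIM-3, by 1.74.

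Among the falls, Hrk, a proapoptotic BH3-only gene, had 21 and 32 reads in nt and 6 and 3 in siBard1 (−2.10, SE 0.45, adjusted p = 0.00878). Zbtb16, which encodes the transcription factor PLZF, stood at 2.58 and 2.36 CPM in nt and at 0.767 and 0.50005 CPM in siBard1 (−1.99, SE 0.36, adjusted p = 0.0034). Sall3, a zinc finger factor of the same family as Sall4, stood at 6.34 and 6.52 CPM against 2.80 and 1.12 CPM (−1.86, SE 0.36). Tlx3, a homeobox factor of neurons, fell by 1.78, Itpka, an inositol trisphosphate kinase, by 1.76, and Nfasc, an adhesion molecule of nodes of Ranvier, by 1.65. Of 9 tested neural and Schwann cell markers 1 fell, Ngfr (−0.92, SE 0.18, adjusted p = 0.0063).

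Of 14 fibroblast markers 2 (14.3%) rose, Mfap5 and Postn (0.81, SE 0.18), and 1 fell, Dcn. The summed level of all listed fibroblast markers was 8415 and 9407 CPM in nt and 12026 and 10393 CPM in siBard1. Thy1 and Pdgfra, read after the counts, did not pass (−0.13 and 0.09). Of 7 tested macrophage and leukocyte markers none passed, and their list summed to 19.6 and 17.7 CPM in nt and 19.7 and 19.1 CPM in siBard1. Of 4 tested endothelial markers 1 passed, Flt1, a VEGF receptor (1.08, SE 0.16), while Pecam1 and Cdh5, which define endothelium, were under the level filter, at no more than 0.334 and 0.421 CPM in these 4 libraries. Of 3 tested skeletal muscle markers none passed, beside the rise of Acta1, and of 15 adipogenic genes Pparg rose (0.99, SE 0.23) while Dgat2 (−0.96, SE 0.22) and Fasn fell.

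The siBrca1 and siBard1 groups were set against each other because the 2 proteins work as 1 complex. On day 3, 422 genes (3.01%) differed between them, 217 higher (1.55%) and 205 lower (1.46%) in siBard1. This count rests on single libraries: it was 0 without siBard1 replicate 2 (limma, with 3323 genes at an unadjusted p under 0.05), 155 without siBrca1 replicate 2, 490 without siBard1 replicate 1 and 1111 without siBrca1 replicate 1. Without the size threshold 21.4% of genes differed, 8.33% higher and 13.1% lower in siBard1. Without siBard1 replicate 2 no gene passed at any size, so the list counts that follow go to 0 as well, and without a trend 36 genes passed higher and 31 lower. Contractile genes were lower in siBard1 than in siBrca1 in 27 of 33 (median −0.65), matrix glycoproteins in 22 of 44 and TGF-β genes in 12 of 23. Acta1 stood at 87.2 and 105 CPM in siBrca1 (−1.08 for siBard1 minus siBrca1, adjusted p = 0.0037), and Ctgf at 234 and 418 CPM (−1.32, adjusted p = 0.0042). For Acta1 and Ctgf the siBard1 libraries thus lay between those of nt and siBrca1.

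In the other direction, siBard1 was higher than siBrca1 in 42 of 44 mitotic genes (median 0.93), 35 of 47 replication genes (0.73), 21 of 42 recombination genes (0.51) and 18 of 55 histone genes (0.80). Brca1 itself stood at 37.5 and 19.4 CPM in siBrca1, 1.20 below siBard1 on the log2 scale (adjusted p = 0.0045). ATF4 and serine genes were lower in siBard1 in 15 of 25 (median −0.62). The largest differences were Trib3, an ATF4 target, at 5.37 and 31.9 CPM in siBrca1 and 2.03 and 1.44 CPM in siBard1 (−2.94, adjusted p = 0.0047), and, on the other side, C2cd4a, at 0.948 and 0.277 CPM in siBrca1 and 3.43 and 2.37 CPM in siBard1 (2.48, adjusted p = 0.0052). For Trib3 the siBrca1 replicates were far apart, with replicate 2 carrying most of the difference. Hrk, which fell in siBard1, was at 1.54 and 3.23 CPM in siBrca1 (−2.47 for siBard1 minus siBrca1, adjusted p = 0.0045).

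Between siBard1 and siWdr5, 288 genes (2.05%) differed, 123 higher (0.877%) and 165 lower (1.18%) in siBard1, and 139 without siBard1 replicate 2, 112 without siWdr5 replicate 1 and 117 without siWdr5 replicate 2. Without the size threshold 8.63% of genes differed, 3.78% higher and 4.85% lower. Contractile genes differed in 4 of 33, all lower in siBard1, and Acta1 stood at 47.1 and 49.5 CPM in siWdr5, within the range of the siBard1 libraries. Matrix genes were lower in siBard1 in 17 of 44 glycoproteins and 14 of 29 collagens, and imprinted and IGF genes in 13 of 24. Ribosomal protein genes were higher in siBard1 in 29 of 80 (median 0.27), though 51 of these 80 lay below both nt libraries in siBard1, against 33.7% of all genes. Dcn stood at 44.7 and 60.8 CPM in siWdr5, 1.21 above siBard1 on the log2 scale (adjusted p = 0.00029). The nt, siBrca1 and siWdr5 contrasts share the siBard1 libraries, so their values are given side by side only.

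On day 6, 10 genes (0.0713%) were called between siBard1 and nt, all higher in siBard1, and 11 (0.0784%) without the size threshold. Myh11 stood at 24.0 and 24.9 CPM in nt and 98.4 and 52.8 CPM in siBard1, and Acta1 at 2.70 and 3.25 CPM against 13.97 and 3.999 CPM, with replicate 1 the higher of the siBard1 pair in both. Myh11 passed on day 6 (adjusted p = 0.041) and Acta1 did not (adjusted p = 0.25). The knockdown difference changed from day 3 to day 6 in 6 called genes (0.0428%), 2 upward (0.0143%) and 4 downward (0.0285%), and in 7 (0.0499%) without the size threshold, 3 of them upward (0.0214%), with 2694 at an unadjusted p under 0.05. It was 184 when only the libraries of these 4 groups were fitted, 67 with the replicate block, and between 0 and 20 with 1 library left out: 0 without either nt library of day 3, either nt library of day 6 or siBard1 replicate 2 of day 6, 3 without siBard1 replicate 2 of day 3, and 20 without siBard1 replicate 1 of day 6. Tgfbi, which encodes a TGF-β-induced matrix protein, stood at 109 and 112 CPM in nt and 96.1 and 80.9 CPM in siBard1 on day 3, and at 91.9 and 79.6 CPM against 177 and 198 CPM on day 6. Lipg, the lipase that rose on day 3 (1.77), stood at 8.85 and 8.83 CPM in nt and 11.0 and 10.3 CPM in siBard1 on day 6. Tgfbi was thus apart between the groups on day 6 with siBard1 higher, and Lipg by a smaller margin than on day 3.

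**Figure D5:**
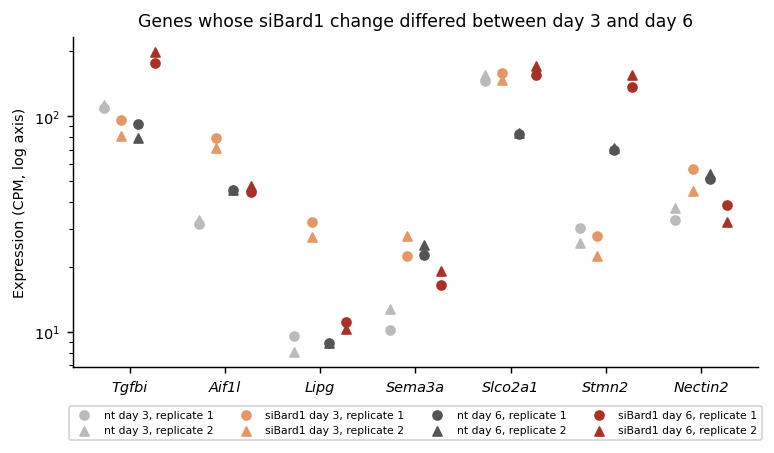
Expression (CPM, log y axis) of the 7 genes whose siBard1 minus nt difference changed between day 3 and day 6 (adjusted p under 0.05), in the nt and siBard1 libraries of both days, circles for replicate 1 and triangles for replicate 2. Aif1l, Lipg, Sema3a and Nectin2 are higher in siBard1 on day 3 and Tgfbi, Slco2a1 and Stmn2 on day 6.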

How the data were processed

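RNA was measured by paired-end sequencing of rRNA-depleted total RNA (Kapa RNA Hyper Prep with Ribo Erase). The deposited table holds log2 CPM values per gene that the authors made with edgeR 3.20.9 after alignment with STAR 2.5.2b to mm10 (GRCm38), per the submitters' processing notes. The read counter and its strand setting are not given in the sources used here. A small prior count is part of the values, so the lowest genes are shrunk toward each other. Whole reads could be recovered for 100% of the values checked (tolerance 0.01 reads). Values of the most highly expressed genes were rounded to whole reads without this check. An alternative with limma-voom on the recovered reads called 353 genes.

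Genes that averaged a log2 CPM of 0 or more were tested with limma 3.58.1 (R 4.3.3, trended prior variance) on the 8 libraries of day 3. The day 6 contrast was fitted on the 8 libraries of day 6 and the interaction contrast on all 16. P-values were adjusted by Benjamini-Hochberg over the 14028 genes and are two-sided, and a gene was called at adjusted p under 0.05 with an absolute log2 difference above 1. CPM values are the deposited log2 values taken back to the linear scale. They are not scaled by gene length and are compared only within a gene, and counting error alone is covered by the depth given. With 2 libraries a group, no exact permutation test of a single gene could pass the threshold.

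The members and gene lists were chosen with earlier results of these data known. Named genes were Bard1, Brca1 and Wdr5, the 15 largest called rises and falls with libraries that do not overlap, the 4 largest called changes each way among small and ribosomal RNAs, up to 5 members of each list by smallest p (up to 2 by level where none passed), and the 5 largest called differences each way between siBard1 and siBrca1. Members named to complete a small count (Actn4, Tln1, Col15a1, Bst2), Cdkn1a, Pecam1, Cdh5, the 7 genes that differed between days and those so marked in the text were added after their values were seen. Overlap of exons was read from GENCODE vM21, and promoter windows from RefSeq. Results for some genes are not reported here.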

Additional observations from a re-analysis of the deposited data

Results flagged for a closer look

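In 7 genes the siBard1 minus nt difference of day 6 differed from that of day 3 by an interaction test (limma on 16 libraries, adjusted p under 0.05). The day 6 change exceeded the day 3 change by 1.46 on the log2 scale for Tgfbi, a matrix protein (day 3 −0.33, day 6 1.13, adjusted p = 0.0148), by 0.96 for Slco2a1, a prostaglandin transporter (0.01 and 0.97, adjusted p = 0.0378), and by 1.21 for Stmn2, a tubulin-binding stathmin (−0.17 and 1.04, adjusted p = 0.0378). It was below the day 3 change for the other 4, by −1.20 for Aif1l, an actin-binding protein (1.22 and 0.02, adjusted p = 0.0148), by −1.504 for Lipg, endothelial lipase (1.77 and 0.27, adjusted p = 0.0148), by −1.56 for Sema3a, a secreted semaphorin (1.13 and −0.43, adjusted p = 0.0173), and by −1.10 for Nectin2, an adhesion protein (0.53 and −0.57, adjusted p = 0.0443). Each value rests on 2 libraries per group.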

How the results depend on the processing

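The count of 314 genes for siBard1 minus nt was 183 with a minimum mean log2 CPM of 2, 166 on log2(CPM + 1) and 2039 without a fold change threshold, and 157 to 247 with 1 library left out. None of the 314 changed sign in any alternative. As their libraries did not overlap, leaving out a library or changing the filter or trend could not have turned a sign. Of 195 named genes 181 passed and 59 passed in every setting run. The 422 genes for siBard1 minus siBrca1 became 254 with the stricter filter, 279 with only the groups compared, 52 without a trend, 184 on log2(CPM + 1), 3008 without a fold threshold and 0 to 1111 with 1 library left out. The 288 for siBard1 minus siWdr5 became 147, 140 and 1210 with the stricter filter, log2(CPM + 1) and no fold threshold, and 112 to 214 with 1 library left out. On log2(CPM + 1) 36 of these 140 were higher, and without a level filter 70 of 233, against 123 of 288. The 6 genes whose change differed between days became 184 with only the groups compared, 2 without a trend, 26 with median centring, 16 with quantile normalization and 0 to 20 with 1 library left out. Fewer genes or libraries enter the filtered and left-out settings by construction, and otherwise the cause was not tested.

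Same-numbered replicates did not deviate together: the correlation of their deviations from the group means was −0.0931 for nt and siBard1 and 0.00688 to 0.0721 for the other pairs. With the replicate block the counts were 343, 453, 312 and 67.

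Some values that had not passed turned sign with 1 library left out. The log2 difference then ranged from −0.029 to 0.43 for Cd68, −0.088 to 0.61 for Myh3, −0.36 to 0.79 for Cd36, −0.014 to 0.44 for Aldh1l2, −0.17 to 0.039 for Slc14a1 and −0.43 to 0.38 for C2cd4a, which was 8.51e-05 with median centring. List medians ranged from −0.00041 to 0.14 for interferon ligands, −0.027 to 0.13 for FGF, −0.029 to 0.32 for macrophage, −0.088 to 0.42 for skeletal muscle (−0.25 with the stricter filter) and −0.012 to 0.33 for adipogenic genes. List counts of 3 or fewer mostly went to 0 with some library left out. At this depth 3 reads equal 0.156 to 0.210 CPM, so genes near 1 CPM rest on few reads.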
